A study of Mus musculus with 8 samples.

Results

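Mitochondrial ribosomal protein genes were taken as all symbols that begin with Mrpl or Mrps followed by a digit, without pseudogenes and opposite-strand transcripts. The rule matched 78 symbols, and 77 of these, among 15747 genes with values in all, could be analysed. Mrpl53 was the gene without a value. By the place of the protein in the mammalian mitoribosome, 50 of the 77 genes code for the large subunit, 26 for the small subunit, and 1, Mrps36, for a protein now assigned to the 2-oxoglutarate dehydrogenase complex.

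Mitochondria hold their own ribosome, which is descended from the bacterial one and makes only the few respiratory chain proteins encoded by mitochondrial DNA. The ribosomal RNAs of this ribosome come from mitochondrial DNA, whereas all its proteins are encoded in the nucleus, made in the cytosol and imported. The large subunit joins amino acids, carries the stalk that recruits translation factors and ends in the tunnel through which the new protein leaves. The small subunit binds the messenger RNA and reads its codons. Tissues with many mitochondria, such as skeletal muscle, hold more of this machinery than tendon, whose sparse tenocytes lie in collagen.

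Bulk RNA sequencing compared 4 injured with 4 sham-operated Achilles tendons. All mice were C57BL/6J of wild-type genotype. For the injury, part of the right tendon was cut from its lateral side with an ear punch 1.5 mm wide, which left a semicircular gap of 0.75 mm. The labels do not describe the sham operation separately. All tendons were parted from the soleus muscle before RNA was extracted, and neither the time after surgery nor the age of the mice is stated. Nothing states that each library is from its own animal, so the p-values speak only of the spread between libraries, which may be technical. The values are normalised read counts rounded to whole numbers by the authors, and they summed to 14568669 to 16263086 per injury library and 13596488 to 15545903 per sham library.

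Markers were read to check the tissue. Tenomodulin (Tnmd), a membrane protein of tenocytes, averaged 24299 ± 2103 normalised counts in injury and 5312 ± 871 in sham libraries (SD, n = 4 each), and the tenocyte list of 9 genes had 6 higher and 0 lower in injury. Skeletal muscle RNA was also present in every library. The 33 muscle genes took 0.428, 0.778, 1.98 and 2.65% of all normalised counts in injury replicates 1 to 4, against 9.02, 8.86, 7.75 and 13.2% in sham replicates 1 to 4. All 33 fell in injury, with a median log2 fold change of -3.01, and none was at 0 in any library. The muscle shares of the groups do not overlap, so injury and muscle content cannot be told apart in these libraries, and fewer cells of a type cannot be told apart from less RNA per cell. Adipocyte genes took 0.0432 ± 0.0119% in injury and 0.254 ± 0.0705% in sham, and 10 of 10 measured ones fell. Of 12 macrophage genes 8 rose and 1 fell, and their summed share was 0.215 ± 0.0218% in injury and 0.113 ± 0.0219% in sham. Of 8 endothelial genes 6 fell and of 7 Schwann cell genes 4 fell, where 31.3% of all genes did. Of 15 proliferation genes 4 rose, a share near the 28.5% of all genes, and the neutrophil gene with values, Csf3r, rose. What part these other cell types have in the results was not tested.

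Promoter windows of 5 of the genes are shown because they represent the sequence types of the group, from the most to the least changed gene. Each runs from 250 bases before to 50 bases after the start of the gene in RefSeq on GRCm38.p6, 5′ to 3′ on the strand of the gene. Capitals mark matches, on either strand, to motif letters of 3 transcription factors of nuclear genes for mitochondrial proteins. They are GCGC, any base and TGCGC for NRF1, CCGGAAG for ETS factors such as GABPA, and AANATGGC for YY1. Mrpl42 (chr10:95501900-95502199, minus strand) has a YY1 match after its start, Mrpl12 (chr11:120484387-120484686, plus strand) an NRF1 match, Mrps11 (chr7:78782881-78783180, plus strand) a YY1 match in a window that overlaps the RefSeq window of Mrpl46 on the other strand, Mrps12 (chr7:28741772-28742071, minus strand) a YY1 and an ETS match, and Mrps25 (chr6:92183974-92184273, minus strand) none of the 3.
Mrpl42: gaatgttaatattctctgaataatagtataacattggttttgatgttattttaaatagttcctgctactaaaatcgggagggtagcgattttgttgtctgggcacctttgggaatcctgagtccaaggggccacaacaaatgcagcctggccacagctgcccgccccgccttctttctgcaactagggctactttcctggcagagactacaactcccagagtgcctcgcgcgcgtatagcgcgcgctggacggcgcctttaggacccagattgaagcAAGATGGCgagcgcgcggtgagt
Mrpl12: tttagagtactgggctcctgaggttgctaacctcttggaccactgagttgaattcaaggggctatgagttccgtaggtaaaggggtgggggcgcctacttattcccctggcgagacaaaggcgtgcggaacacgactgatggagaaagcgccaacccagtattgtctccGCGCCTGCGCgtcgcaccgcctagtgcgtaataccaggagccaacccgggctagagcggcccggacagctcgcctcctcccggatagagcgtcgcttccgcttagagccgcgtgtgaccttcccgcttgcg
Mrps11: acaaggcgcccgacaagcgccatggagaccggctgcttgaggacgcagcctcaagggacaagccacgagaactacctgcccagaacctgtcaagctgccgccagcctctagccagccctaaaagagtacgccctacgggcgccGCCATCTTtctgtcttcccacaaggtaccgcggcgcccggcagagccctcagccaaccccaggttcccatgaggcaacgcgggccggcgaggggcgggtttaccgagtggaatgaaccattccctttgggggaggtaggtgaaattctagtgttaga
Mrps12: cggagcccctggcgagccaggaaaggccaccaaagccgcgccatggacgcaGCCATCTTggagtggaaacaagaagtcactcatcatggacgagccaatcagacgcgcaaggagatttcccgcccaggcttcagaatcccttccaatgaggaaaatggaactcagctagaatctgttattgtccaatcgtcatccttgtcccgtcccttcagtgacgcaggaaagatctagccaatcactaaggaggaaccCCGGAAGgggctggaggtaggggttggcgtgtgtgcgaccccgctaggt
Mrps25: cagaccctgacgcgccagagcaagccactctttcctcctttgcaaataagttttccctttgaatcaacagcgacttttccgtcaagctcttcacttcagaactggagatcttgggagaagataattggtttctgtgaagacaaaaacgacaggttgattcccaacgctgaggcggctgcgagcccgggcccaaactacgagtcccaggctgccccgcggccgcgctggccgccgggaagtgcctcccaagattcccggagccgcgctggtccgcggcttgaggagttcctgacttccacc

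Nearly all mitochondrial ribosomal protein genes had less RNA in injured than in sham tendon. Of the 77 genes 74 fell, 0 rose and 3 (Mrpl20, Mrpl52 and Mrps25) did not pass the test, which was limma on log2(value + 1) with Benjamini-Hochberg adjustment over all 15747 genes and a threshold of 0.05. Over all genes, 31.3% were called lower and 28.5% higher, 59.7% in all. The median log2 fold change of the 77 genes was -0.84, which is 1.79-fold lower, against -0.02 over all genes. The quartiles of the group were -1.12 and -0.57. Among the called genes the fall ranged from 1.25-fold to 3.65-fold, with adjusted p-values of 1.62e-05 to 0.0265. At least a 2-fold fall was called for 26 of the 77 genes and for 13.2% of all genes.

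The fall was visible library by library. The 77 genes together had 19587, 20320, 20872 and 23738 normalised counts in injury replicates 1 to 4, against 37857, 37355, 35976 and 46796 in sham replicates 1 to 4. Their share of all normalised counts was 0.137 ± 0.00641% in injury and 0.272 ± 0.0198% in sham (SD, n = 4 each), and the groups do not overlap. For 75 of the 77 genes every injury library was below every sham library, as for 28.9% of all genes. Mrpl20 and Mrps25 were the exceptions. None of the 77 genes was at 0 in any library, their values lay between 61 and 2031, and the median coefficient of variation was 10.9% in injury and 13.1% in sham.

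Within each group the same library was the highest for most of the genes. Injury replicate 4 was the highest injury library for 61 of the 77 genes, and sham replicate 4 was the highest sham library for 73. The same libraries were highest within their group for 32 of the 33 muscle genes each. Both also had the highest total of their group (16263086 and 15545903 normalised counts). Of 76 cytosolic ribosomal protein genes, injury replicate 4 was highest for 2 and sham replicate 4 for 5. How many of all genes were highest in these libraries was not counted. In injury replicate 4 the median mitoribosomal gene was 0.21 above the mean of the other injury libraries on the log2 scale, and the median muscle gene 1.75 above. In sham replicate 4 these differences from the other sham libraries were 0.33 and 0.76. When the libraries richest in muscle RNA for their group (injury replicates 3 and 4 and sham replicate 4) were left out, 73 of the 77 genes were called lower, with a median log2 fold change of -0.88. The remaining libraries had muscle shares of 0.428 and 0.778% in injury and of 7.75 to 9.02% in sham, so the groups were no closer in muscle RNA.

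**Figure D1:**
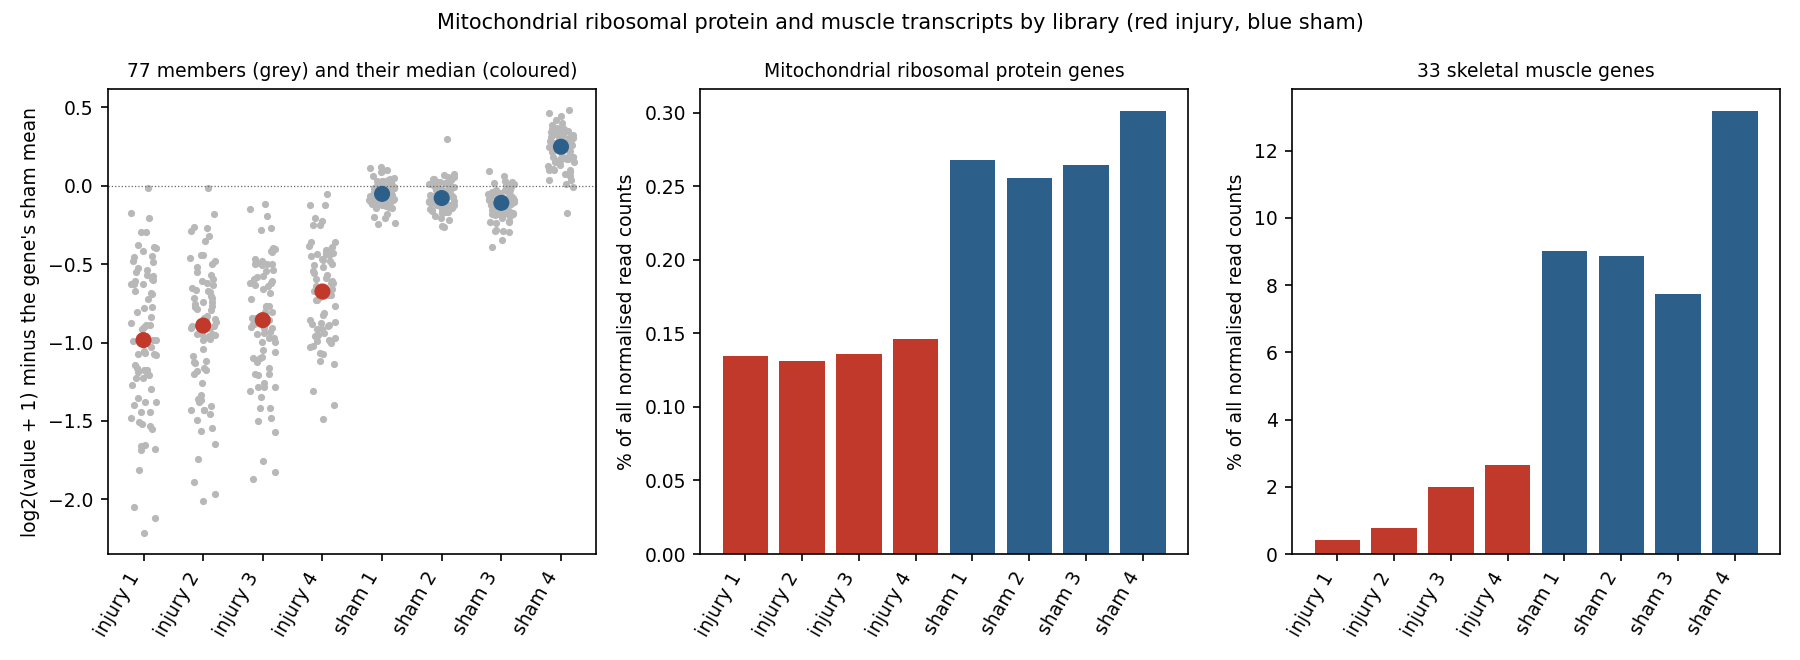
Left, log2(value + 1) of each of the 77 genes in each library minus the mean of the gene over sham libraries (grey points) with the median (coloured points); middle and right, bars with the share of all normalised counts taken by the 77 genes and by 33 skeletal muscle genes, in percent. The medians and bars of injury libraries (red) lie below those of sham libraries (blue) in all 3 panels, and sham replicate 4 is the highest library in each.

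The large subunit had 48 of 50 genes lower in injury, with a median log2 fold change of -0.84. The 2 others were Mrpl20 and Mrpl52. By origin, 29 of 30 proteins with a bacterial homologue fell (median -0.97), as did 19 of 20 without a direct bacterial counterpart, Mrps18a among them (median -0.75). The difference between these medians was not tested.

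Mrpl42 had the largest fall. It codes for a large subunit protein without a bacterial homologue, and it had 320, 369, 440 and 529 normalised counts in injury replicates 1 to 4, against 1385, 1334, 1308 and 2031 in sham replicates 1 to 4. Every injury library was below every sham library, and the log2 fold change was -1.87 ± 0.18 (SE, limma, adjusted p = 4.40e-05). Mrpl42 lies on chromosome 10 at 95480805 to 95501940 in GENCODE M21 (GRCm38), and its exons overlap no other tested gene. Mrpl51, another protein found only in mitochondria, had 303, 319, 378 and 568 in injury, against 991, 1048, 881 and 1428 in sham (log2 fold change -1.49 ± 0.21, adjusted p = 0.000309). The lowest sham library was still well above the highest injury library. Mrpl15, the homologue of the bacterial protein L15, had 287, 313, 364 and 442 in injury, against 894, 846, 817 and 1193 in sham (log2 fold change -1.42 ± 0.16, adjusted p = 8.46e-05).

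The stalk recruits elongation factors to the ribosome, and its 3 genes all fell, with log2 fold changes of -1.51 to -0.39. Mrpl12, the stalk protein itself, which also has been reported to bind the mitochondrial RNA polymerase, had 443, 453, 476 and 644 normalised counts in injury, against 1404, 1300, 1250 and 1775 in sham (log2 fold change -1.51 ± 0.15, adjusted p = 4.12e-05). Mrpl11, at the base of the stalk, had 157, 190, 194 and 204 in injury, against 384, 372, 405 and 516 in sham (log2 fold change -1.16 ± 0.12). Mrpl10, which anchors Mrpl12, had 441, 503, 400 and 508 in injury, against 559, 624, 542 and 707 in sham (log2 fold change -0.39 ± 0.11, adjusted p = 0.0128). The groups do not overlap for any of the 3 genes, and differences between the genes were not tested.

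Around the peptide exit tunnel 8 of 8 genes fell, with a median of -0.66 and a range of -1.83 to -0.35. The lowest was Mrpl47, the homologue of bacterial L29, with 300, 335, 368 and 496 normalised counts in injury, against 1299, 1203, 1161 and 1620 in sham (log2 fold change -1.83 ± 0.16, adjusted p = 2.65e-05). Its exons share 616 bases with Ndufb5 and 452 bases with Actl6a on the opposite strand, out of 4419, and since the strand setting of the counting is not given in the sources used here, reads in these stretches cannot be assigned to 1 gene. Mrpl45, which ties the ribosome to the inner membrane, fell with a log2 fold change of -1.28, and Mrpl44, a ribonuclease III-like protein, with -1.23. Mrpl24, a tunnel protein of bacterial descent, had a smaller fall, with 577, 669, 576 and 564 in injury, against 759, 726, 771 and 777 in sham (log2 fold change -0.35 ± 0.07, adjusted p = 0.00237). All its injury libraries were nevertheless below all its sham libraries, and 594 of its 2255 exon bases overlap Rrnad1 on the opposite strand.

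Of 8 genes listed for the central protuberance, the knob of the large subunit that faces the small one, 7 fell. The 8 had a median of -0.56, and the list may not be complete. Mrpl18 and Mrpl46 fell most, with log2 fold changes of -1.38 and -1.28. Mrps30, which carries a small subunit name but sits in the large subunit, had 217, 251, 236 and 296 in injury, against 412, 358, 391 and 453 in sham (log2 fold change -0.69 ± 0.11). Several of the smallest falls were also here. Mrpl40 had 222, 204, 252 and 228 in injury, against 283, 293, 289 and 354 in sham (-0.42 ± 0.10). Mrpl27, a homologue of bacterial L27, had 321, 303, 319 and 329 in injury, against 437, 440, 394 and 421 in sham (-0.41 ± 0.07). Mrpl48 had 639, 579, 646 and 659 in injury, against 747, 798, 695 and 917 in sham (-0.32 ± 0.09), and 708 of its 8152 exon bases overlap Rab6a on the opposite strand. For all 3 the injury libraries were below the sham libraries.

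Mrpl52, also of the central protuberance, had 322, 297, 328 and 333 normalised counts in injury, against 341, 337, 387 and 390 in sham. The groups do not overlap, but the log2 fold change of -0.18 ± 0.08 missed the threshold (limma, adjusted p = 0.0740). Mrpl20, a homologue of bacterial L20, had 305, 293, 346 and 345 in injury, against 353, 313, 391 and 458 in sham, and here the groups overlap (log2 fold change -0.22 ± 0.12, adjusted p = 0.141). Both genes had negative fold changes under every scaling tried. Mrpl19, with a small fall that was called, had 215, 211, 205 and 245 in injury, against 263, 283, 264 and 344 in sham (-0.39 ± 0.11, adjusted p = 0.0110), and 1962 of its 5450 exon bases overlap Gcfc2 on the other strand.

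Mrpl58, a further large subunit protein, is a peptidyl-tRNA hydrolase that became part of the ribosome. It had 234, 226, 246 and 246 in injury, against 391, 348, 337 and 448 in sham (log2 fold change -0.67 ± 0.10, adjusted p = 0.000388). Mrpl41 had 142, 134, 178 and 191 in injury, against 255, 235, 253 and 328 in sham (-0.73 ± 0.15, adjusted p = 0.00213). In both genes the 4 injury libraries were the 4 lowest.

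**Figure D2:**
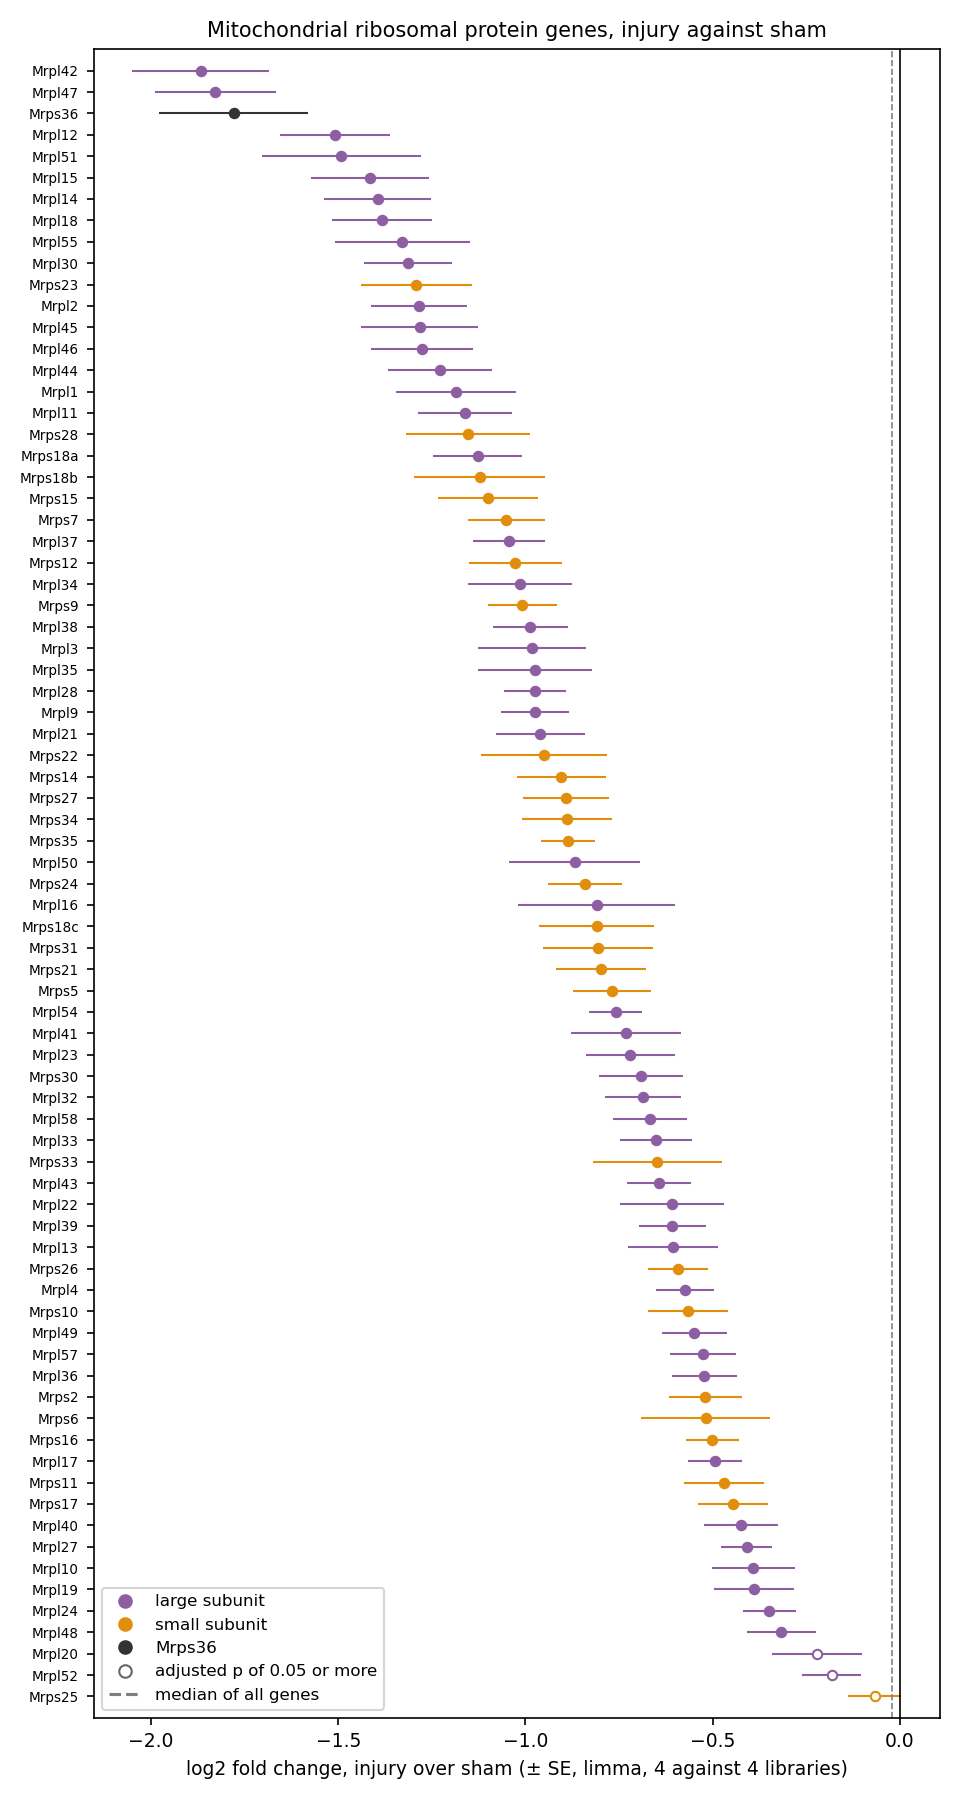
Log2 fold change of injury over sham for each of the 77 genes (x axis; points with bars of ± SE from limma, 4 against 4 libraries), coloured by the place of the protein, with open points for genes that did not pass. All 77 estimates are below 0, from -1.87 (Mrpl42) to -0.07 (Mrps25), and the dashed line marks the median of all genes at -0.02.

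The small subunit had 25 of 26 genes lower in injury, with a median log2 fold change of -0.83 and a range of -1.29 to -0.07. All 16 proteins with a bacterial homologue fell (median -0.80), as did 9 of 10 without a direct bacterial counterpart, Mrps18b among them (median -0.89). The largest fall was that of Mrps23, with a log2 fold change of -1.29, followed by Mrps28 with -1.15. Mrps35 had the smallest adjusted p of the 77 genes, 1.62e-05, with a log2 fold change of -0.89 ± 0.07. Mrps12, the decoding protein known in bacteria as S12, had 105, 114, 85 and 106 in injury, against 177, 220, 210 and 232 in sham (-1.03 ± 0.12, adjusted p = 0.000127).

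Mrps25 had the smallest difference of the group. This small subunit protein had 808, 806, 714 and 787 normalised counts in injury, against 875, 752, 818 and 820 in sham, and the groups overlap (log2 fold change -0.07 ± 0.07, adjusted p = 0.437). Of its 6576 exon bases, 4590 are also exon of Nr2c2 on the opposite strand, so its value may include reads of that gene. Mrps6 came closest to the threshold on the called side, with 131, 121, 83 and 93 in injury, against 155, 186, 135 and 134 in sham (-0.52 ± 0.17, adjusted p = 0.0265). Its exons share 159 of 1533 bases with Slc5a3 on the same strand. The call was lost under upper-quartile scaling (adjusted p = 0.0523), without injury replicate 3 or 4, and without sham replicate 1 or 2, with an adjusted p of up to 0.0737 when 1 library was left out and of 0.129 when injury replicates 3 and 4 and sham replicate 4 were.

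Per kilobase of the principal transcript, levels could be set beside each other only roughly, since the values are per gene. The principal transcript has 666 of the 3682 exon bases of Mrpl42, 418 of 1109 for Mrpl52 and 1316 of 1532 for Mrpl12. The order of the genes therefore depends on the length chosen. The median level of the 77 genes was 149 normalised counts per kilobase in injury and 293 in sham. By the mean over both groups, the highest in the large subunit were Mrpl42, at 622 in injury and 2274 in sham, and Mrpl52, at 766 in injury and 870 in sham. In sham alone Mrpl12 (1088) and Mrpl30 (1033) were also above Mrpl52. In sham Mrpl42 was above Mrpl52, and in injury below it. In the small subunit Mrps21 was highest in either group, at 621 in injury and 1093 in sham, with 285, 293, 302 and 333 normalised counts in injury, against 457, 552, 465 and 659 in sham (log2 fold change -0.80 ± 0.12). Mrps34 was second by the mean over both groups, at 341 per kilobase in injury and 631 in sham, with 273, 310, 293 and 375 normalised counts in injury, against 540, 549, 537 and 691 in sham (-0.89 ± 0.12). In sham alone Mrps23 (641) and Mrps15 (639) were slightly above it. Of its 2064 exon bases 1309 overlap Mapk8ip3 on the opposite strand.

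The bacterial protein S18 has 3 descendants in mammals, which occupy different places. Mrps18a is in the large subunit, and Mrps18b and Mrps18c are in the small subunit, where Mrps18c takes the place of S18 itself. Mrps18a had 279, 298, 284 and 336 in injury, against 569, 618, 629 and 823 in sham (log2 fold change -1.13 ± 0.12). Mrps18b had 110, 87, 114 and 149 in injury, against 239, 216, 229 and 315 in sham (-1.12 ± 0.18). Of its 2089 exon bases 638 overlap Gm16279 on the opposite strand. Mrps18c had 61, 79, 82 and 104 in injury, against 136, 136, 144 and 149 in sham (-0.81 ± 0.15). All 3 fell without overlap of the groups. Whether they fell by different amounts was tested on the log2 ratio of each pair within a library, with an exact two-sided permutation test that cannot go below 0.0286 at 4 against 4. The ratio of Mrps18a to Mrps18b differed by -0.01 between injury and sham (p = 1 before and after adjustment over 3 pairs), that of Mrps18a to Mrps18c by -0.32 (exact p = 0.0857, adjusted 0.214) and that of Mrps18b to Mrps18c by -0.31 (exact p = 0.143, adjusted 0.214). After adjustment over 3 pairs a lone pair cannot pass at this number of libraries, so these tests do not show that the genes fell alike. The log2 ratio of Mrps18a to Mrps18c averaged 1.88 ± 0.213 in injury and 2.20 ± 0.177 in sham (SD, n = 4 each).

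Mrps36, the gene outside the ribosome, had the third largest fall. It had 68, 76, 77 and 114 normalised counts in injury, against 297, 272, 217 and 372 in sham, with no overlap (log2 fold change -1.78 ± 0.20, adjusted p = 8.23e-05). Of the 5 mitoribosomal proteins with other symbols, 4 in the small subunit and Gadd45gip1 in the large subunit, all 5 fell, with a median of -0.77. The largest fall was that of Ptcd3, an RNA-binding pentatricopeptide protein, with 235, 281, 317 and 330 in injury, against 647, 659, 599 and 864 in sham (-1.25 ± 0.14). Chchd1 had 313, 320, 322 and 399 in injury, against 620, 624, 688 and 769 in sham, 1.99-fold lower on this scale (adjusted p = 5.89e-05). Dap3, a GTP-binding protein of the small subunit, had 479, 477, 501 and 504 in injury, against 745, 741, 683 and 820 in sham (-0.60 ± 0.07). Gadd45gip1 and Aurkaip1 fell with log2 fold changes of -0.77 and -0.52, again without overlap.

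When the mean log2 value of the 33 muscle genes was added to the model as a covariate, 27 of the 77 genes were called lower and 0 higher, while over all genes 9.95% were called lower and 13.5% higher. The estimates stayed negative for 75 of the 77 genes and had a median of -0.51, and 71 were nearer 0 than without the covariate. The standard errors rose as well, with a median of 0.192 with the covariate and 0.119 without. Of the large subunit genes 19 were called and of the small subunit genes 7. The most negative estimates were those of Mrps6 (-1.13, adjusted p = 0.0156), Mrps12 (-1.12, adjusted p = 0.0138), Mrpl47 (-1.10, adjusted p = 0.00303), Mrpl42 (-1.03, adjusted p = 0.00610), Mrps36 (-1.02, adjusted p = 0.0304) and Mrpl12 (-0.94, adjusted p = 0.0105). For Mrpl51 the estimate moved to -0.54 with the covariate (adjusted p = 0.125), and for Mrpl16 and Mrpl20 it turned positive, at 0.17 and 0.09, neither of which was called. Since muscle values do not overlap between the groups, this fit extends each line beyond the libraries that determine it. The 33 muscle genes also include Ckmt2, Cox6a2 and Cox7a1, which code for mitochondrial proteins, so the covariate is not free of mitochondrial genes.

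**Figure D3:**
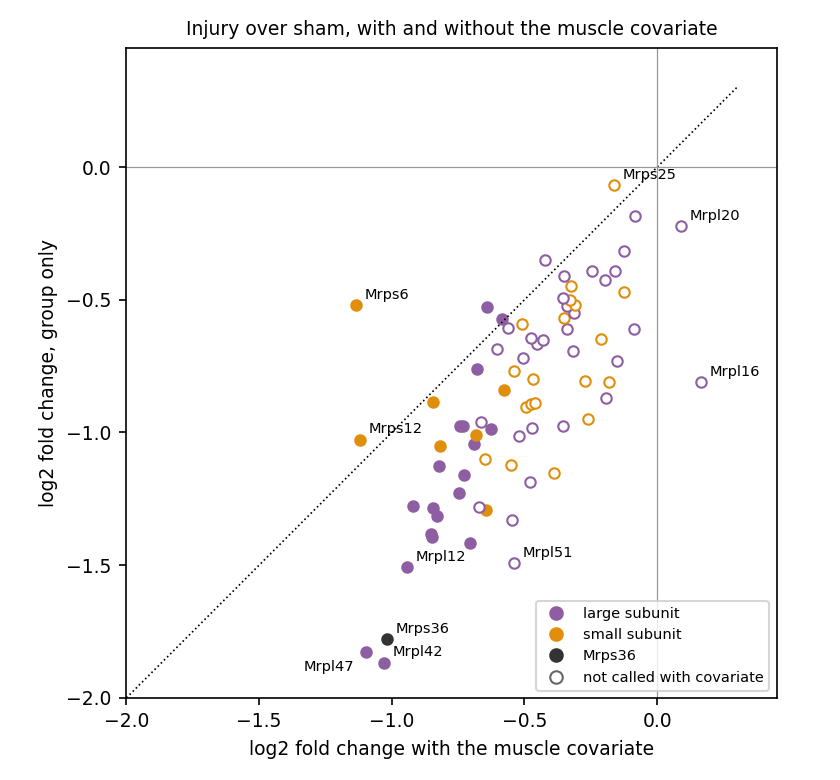
Log2 fold change of injury over sham with the muscle covariate (x axis) and without it (y axis) for the 77 genes, coloured by the place of the protein. Filled points were called with the covariate, and the dotted diagonal marks equal values: 71 genes are nearer 0 with the covariate, and Mrps6 and Mrps12 are among those that are not.

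Genes that serve the mitoribosome also fell for the most part. Of 25 assembly factors 19 fell, 0 rose and 6 did not pass, with a median of -0.60. They include Malsu1, which keeps the subunits apart during assembly (log2 fold change -0.85 ± 0.10), the small subunit RNA chaperone Eral1 (-0.64 ± 0.08) and Rcc1l (-0.78 ± 0.10). Mterf4, which guides a ribosomal RNA methyltransferase, had 828, 762, 735 and 605 in injury, against 824, 1060, 1210 and 832 in sham, with overlapping groups (-0.41 ± 0.14, adjusted p = 0.0333). Its call was lost under upper-quartile scaling (0.0779), and without injury replicate 2, 3 or 4 or sham replicate 2 or 3 (0.0531 to 0.0846). Of 16 translation factors 13 fell, with a median of -0.53. The elongation factor Gfm1 had 376, 384, 487 and 609 in injury, against 1232, 1071, 973 and 1529 in sham (-1.38 ± 0.18), Taco1, a translational activator of a cytochrome oxidase subunit, fell with -1.81 ± 0.26, and Mtres1 with -1.38 ± 0.16. The recycling factor Gfm2 had 1547, 1473, 1357 and 1395 in injury, against 1480, 1340, 1402 and 1608 in sham, a log2 fold change of -0.01 ± 0.08 (adjusted p = 0.897) whose sign changed with the scaling.

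Among 22 genes of mitochondrial tRNA charging 19 fell and 1 rose, with a median of -0.64. Gatb and Qrsl1, subunits of the enzyme that makes glutamine-charged tRNA in mitochondria, fell with log2 fold changes of -1.41 ± 0.13 and -1.30 ± 0.14. Gars, whose enzyme works in the cytosol and in mitochondria, was the gene that rose, with 1352, 1386, 1480 and 1714 in injury, against 960, 972, 999 and 1119 in sham (0.55 ± 0.09, adjusted p = 0.000709). Lars2 had 1722, 2161, 1597 and 1376 in injury, against 2166, 3334, 3586 and 15282 in sham. Sham replicate 4 stands far above the other libraries, and without it the log2 fold change was -0.81 (adjusted p = 0.00972) in place of -1.40 (adjusted p = 0.0399). The call was lost without any 1 injury library and without sham replicate 2 or 3 (adjusted p of 0.0503 to 0.0815), and with a single prior variance for all genes (0.0536).

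Of 24 genes of mitochondrial transcription and RNA handling 20 fell, with a median of -0.61. Fastkd1 and Tbrg4, of a family of mitochondrial RNA-binding proteins, fell with log2 fold changes of -1.03 ± 0.09 and -1.19 ± 0.11, and the helicase Supv3l1 with -0.91 ± 0.09. The import machinery, which brings every ribosomal protein into the organelle, had 26 of 27 genes lower and a median of -0.89. Hspa9, the motor chaperone of import, had 1730, 1818, 2170 and 2800 in injury, against 5291, 4707, 4383 and 6820 in sham (-1.32 ± 0.18). With the muscle covariate, 5 of 25 assembly factors, 2 of 16 translation factors, 6 of 22 tRNA charging genes, 7 of 24 RNA genes and 11 of 27 import genes were called lower, beside 9.95% of all genes. For the translation factors the share is near that of all genes.

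Nuclear-encoded respiratory chain subunits, many of them partners of the proteins that the mitoribosome makes, also fell. Of 72 measured 70 fell, with a median of -1.76, and 65 were called lower with the muscle covariate, with a median of -0.80. Their summed share was 0.493 ± 0.117% of normalised counts in injury and 1.75 ± 0.239% in sham. Atp5b, the catalytic subunit of ATP synthase, had 5113, 6082, 8252 and 11453 in injury, against 27338, 25244, 22229 and 37264 in sham (-1.90 ± 0.26). For the proteins of the cytosolic ribosome the counts were different: of 76 genes 17 fell, 4 rose and 55 did not pass, with a median of -0.12. Of all genes 31.3% were called lower and 28.5% higher, so both shares were smaller in this list. The summed share of the 76 genes was 1.58 ± 0.145% in injury and 1.82 ± 0.188% in sham, and the groups overlap. With the muscle covariate 16 of these 76 were called lower and 0 higher, beside 9.95% and 13.5% of all genes. In that fit the share called lower was larger in this list than over all genes.

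**Figure D4:**
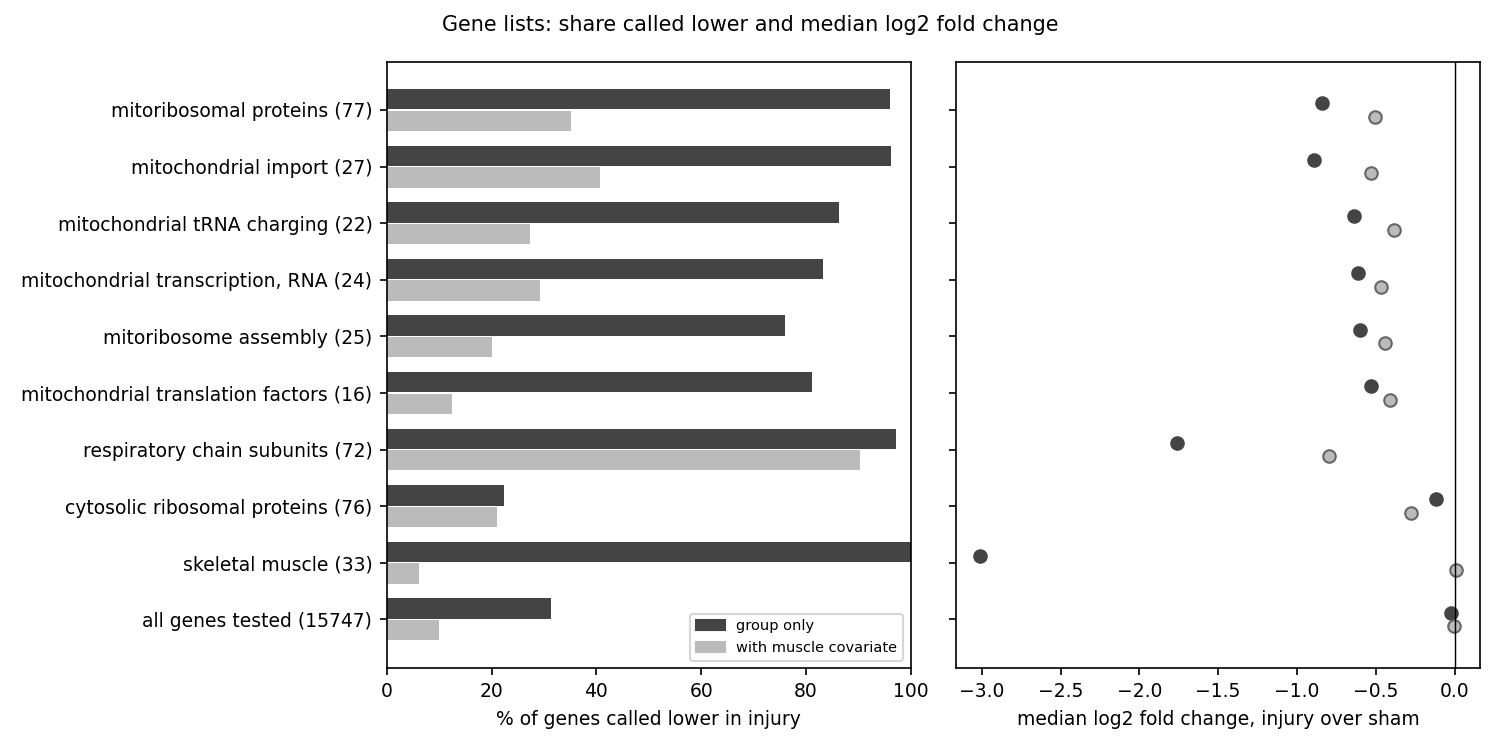
Left, share of each gene list called lower in injury by limma, in percent, without (dark bars) and with (light bars) the muscle covariate; right, the median log2 fold change of the list in the same fits (points), with the number of measured genes in brackets. Mitoribosomal proteins have a median of -0.84 without and -0.51 with the covariate, cytosolic ribosomal proteins -0.12 and -0.28, and skeletal muscle genes -3.01 and 0.01. The covariate is the mean of these same muscle genes, so their average in that fit is fixed in advance and is no result.

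Regulators of mitochondrial gene expression did not move together. Of 13 genes 6 fell, 1 rose and 6 did not pass, with a median of -0.09. The 3 estrogen-related receptors fell: Esrra, which drives genes of oxidative metabolism, had 328, 385, 405 and 471 in injury, against 1039, 1220, 1086 and 1504 in sham (-1.60 ± 0.14), and Esrrb and Esrrg fell with log2 fold changes of -3.16 ± 0.42 and -3.04 ± 0.48. The coactivator Ppargc1a fell with -1.80 ± 0.30, and its relative Pprc1 rose, with 569, 490, 607 and 654 in injury, against 355, 381, 450 and 434 in sham (0.52 ± 0.11, adjusted p = 0.00309). The genes of the factors whose motifs are marked above did not pass. Nrf1 had a log2 fold change of 0.15 ± 0.07 (adjusted p = 0.104), Gabpa -0.09 ± 0.07 (adjusted p = 0.335) and Yy1 0.10 ± 0.06 (adjusted p = 0.169). With the muscle covariate 1 regulator, Esrra at -1.03, was called lower and 1, Pprc1, higher.

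RefSeq promoter windows were matched by symbol to 68 of the 77 genes, and 46 of these (67.6%) held a match to at least 1 of the 3 motifs, against 32.5% of the 11288 tested genes with a window. The NRF1 letters were in 13 windows (19.1%, against 10.5% of tested genes and 4.60% of all 32851 windows). The ETS letters were in 25 windows (36.8%, against 18.3% and 8.86%) and the YY1 letters in 21 (30.9%, against 9.21% and 6.05%). No YY1, ETS and NRF1 matches overlapped in these windows. The estrogen-related receptor letters TCAAGGTCA were in 0 of the 68 windows and in 0.319% of tested genes, and the letters TATAAA in 5 (7.35%, against 9.25%). The median log2 fold change was -0.97 with and -0.81 without the NRF1 letters, -0.80 and -0.87 for ETS, and -0.96 and -0.81 for YY1. A match of letters is a description and does not show binding.

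Many of these genes start close to another gene on the opposite strand. Of the 77 genes 33 (42.9%) had a tested gene on the opposite strand whose 5′ end in GENCODE M21 lay within 1000 bases, overlapping genes included, against 19.01% of all tested genes. The median log2 fold change was -0.87 for the 33 genes with such a neighbour, all of which fell, and -0.83 for the other 44, of which 41 fell. In 1 pair both genes are mitoribosomal: the 5′ ends of Mrpl46 and Mrps11 are 412 bases apart, and their exons share 173 bases. Mrpl46 had 129, 120, 119 and 160 in injury, against 308, 313, 272 and 394 in sham (log2 fold change -1.28 ± 0.14), while Mrps11 had 179, 165, 190 and 228 in injury, against 254, 250, 266 and 281 in sham (-0.47 ± 0.11).

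The 29 protein-coding neighbours from outside the group had a median log2 fold change of -0.28, and 17 of them fell, 2 rose and 10 did not pass. Of all genes 31.3% fell and 28.5% rose, so a larger share of these neighbours fell and a smaller share rose. Some neighbours are mitochondrial genes themselves. Sars2, the mitochondrial seryl-tRNA synthetase, starts 172 bases from Mrps12 and fell as well (-0.96 ± 0.11 beside -1.03), and Ndufs6, a complex I subunit 29 bases from Mrpl36, had a log2 fold change of -1.76 beside -0.52. Mrpl54 and Apba3, 26 bases apart, had -0.76 and -0.73. Other neighbours had positive estimates. Wdfy1, 125 bases from Mrpl44, had 541, 555, 570 and 595 in injury, against 486, 513, 509 and 526 in sham (0.15 ± 0.06, adjusted p = 0.0558), while Mrpl44 had -1.23. Mitd1, 66 bases from Mrpl30, had 0.22 ± 0.12 (adjusted p = 0.152) beside -1.31. Eme1, next to Mrpl27, rose with 0.35 ± 0.07 (adjusted p = 0.00199), and Rab6a, next to Mrpl48, with 0.25 ± 0.07 (adjusted p = 0.0117). These examples were chosen after their values were seen.

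**Figure D5:**
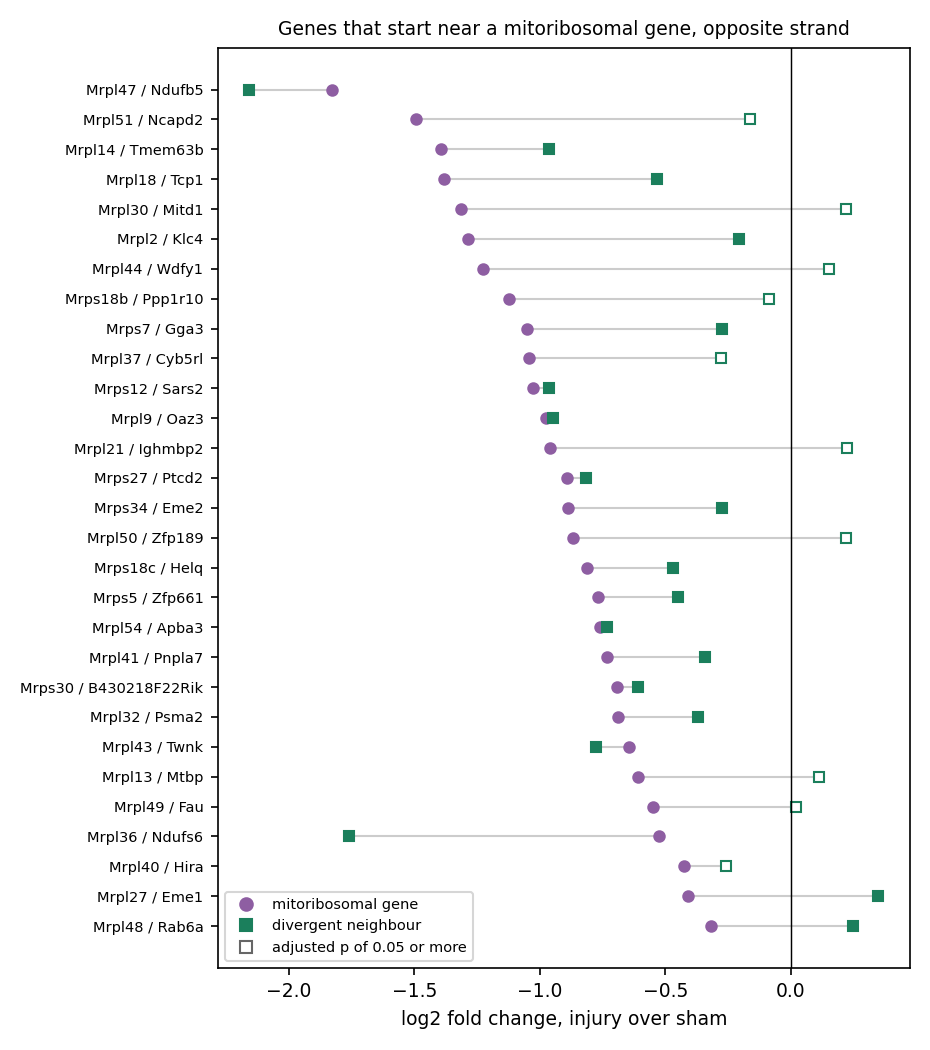
Log2 fold change of injury over sham (x axis) for mitoribosomal genes (circles) and their 29 protein-coding divergent neighbours from outside the group (squares), 1 pair per row, with open squares for neighbours that did not pass. Circles all lie below 0, while squares lie between the -2.16 of Ndufb5 and the 0.35 of Eme1.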

How the data were processed

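The deposited value of a gene in a library is a score: reads normalised (per the file headers) and rounded to whole numbers by the authors, so no count model was used. The submitters' processing notes name STAR 2.7.6a, StringTie 1.3.5, Trimmomatic 0.39 and edgeR 3.12, and the builds mm10 and mm9. The order of these steps, the normalization method and the strand setting used are not stated. The tables list 55450 genes, of which 15747 with values were tested.

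limma 3.58.1 in R 4.3.3 was fitted to log2(value + 1) with the group only and a prior variance that follows expression, after a filter (at least 1 in at least 4 libraries) that removed 0 genes. Two-sided p-values were adjusted by Benjamini-Hochberg over all genes, with a threshold of 0.05. This fold change understates that of low genes. The test was run on simulated data before use.

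The genes and gene lists were chosen with earlier results of these data known. Named genes were the 6 called ones at each end of the fold changes and the 2 highest per kilobase in each subunit. To these were added the stalk and S18 genes, Mrps30, Mrps36, Mrpl41 and Mrpl58. Other lists gave up to 3 with the smallest adjusted p, the first that went the opposite way and the most abundant. Not all of these genes from other lists are named in the text. Further genes named were chosen after their values were seen.

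Positions and exons came from GENCODE M21 (GRCm38), which held 99.9% of identifiers, and overlaps from bedtools 2.31.1. Of the 77 genes 28 shared exon bases with another tested gene. Promoter windows came from RefSeq (GRCm38.p6). Replicates of 1 group had equal values for 1.11 to 2.25% of genes. Alternatives covered scaling, pseudocount, filter, prior variance, replicate block, muscle covariate, genes without overlapping exons and libraries left out. Figures used matplotlib 3.10.9 under Python 3.11.15.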

Additional observations from a re-analysis of the deposited data

Results flagged for a closer look

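Of 156 groups of 4 libraries (77 genes and their summed share, in injury and in sham), 17 held a library whose gap to the nearest other one was large for the range of its group. Chance alone flags about 1 group in 20. The genes were read in the same libraries and vary together, so the groups are not independent and the 17 cannot be weighed against that rate. Injury replicate 4 stood above the other injury libraries for Mrpl12 (644 normalised counts, others 443 to 476), Mrpl14 (261, others 178 to 187) and Mrps31 (175, others 116 to 122). Injury replicate 2 did so for Mrpl24 (669, others 564 to 577), and injury replicate 1 for Mrpl4 (535, others 492 to 496).

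The other 12 were in sham replicate 4, which was also the sham library richest in muscle RNA. Its values were 386 for Mrpl1 (others 269 to 287), 572 for Mrpl13 (others 435 to 446), 419 for Mrpl21 (others 297 to 316) and 1184 for Mrpl30 (others 933 to 950). They were 352 for Mrpl32 (others 284 to 291), 521 for Mrpl35 (others 359 to 381), 354 for Mrpl40 (others 283 to 293) and 2031 for Mrpl42 (others 1308 to 1385). They were 303 for Mrpl57 (others 258 to 265), 231 for Mrps22 (others 160 to 168), 1077 for Mrps23 (others 766 to 790) and 691 for Mrps34 (others 537 to 549). Whether muscle content accounts for these values was not tested.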

How the results depend on the processing

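No gene of the 77 was called higher under any alternative, and 73 to 76 were called lower under 3 scalings, a pseudocount of 0.1, 2 filters and a single prior variance, and 73 to 74 when each library was left out in turn (median log2 fold change -0.94 to -0.77). With the muscle covariate 27 were called lower with a median of -0.51, and over all genes 1567 were called lower and 2126 higher, 3693 in all. With that covariate Mrpl16 was at 0.17 and Mrpl20 at 0.0903, neither called. Among genes without overlapping exons 47 of 49 were called, where fewer genes were tested. With equal library totals the median of all genes was -0.11 and that of the 77 genes -0.93, and Mrpl20 and Mrpl52 passed.

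With the replicate number as a block 75 were called, Mrpl20 among them. Injury and sham libraries with the same number had deviations correlated at 0.25, 0.28, -0.01 and 0.49. Injury replicates 2 and 4 correlated best with the sham library of their own number. Injury replicate 1 correlated about as well with sham replicate 3 (0.26), and injury replicate 3 best with sham replicate 4 (0.20). These values do not settle whether the numbers are pairs, and the main fit did not take them as pairs.

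Gfm2 was at 0.00567 with median-ratio factors, 0.0350 with upper-quartile factors, 0.10 with 3 libraries left out together (injury replicates 3 and 4, sham replicate 4), and -0.0522 to 0.0354 without 1 library. The ratio of Mrps18a to Mrps18b differed by 0.15 without those 3 libraries and by -0.128 to 0.0704 without 1 library. The cause of these changes was not tested. Lowly expressed genes limit little here, since no value of the 77 genes was under 61.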
